A study of Mus musculus with 4 samples.

Results

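The 10 genes described here encode the AP-1 factors of the FOS family (Fos, Fosb, Fosl1, Fosl2) and the JUN family (Jun, Junb, Jund), together with the immediate-early genes Egr1, Ier2 and Ier3. They were chosen by symbol from the 54838 genes listed for each library. All 10 passed the filter on low counts that left 12510 genes to be tested. The RNA was from Hepa1-6, an established line of mouse hepatoma cells, in 2 groups of 2 libraries. The NC libraries (NC 1, NC 2) carry the genotype label Acvr2a wild type and the KO libraries (KO 1, KO 2) the label Acvr2a knockout. Acvr2a encodes a type II receptor for activin. The series' design text describes the knockout cells as subclones, but how many clones stand behind the KO libraries is not given, nor what NC abbreviates, so clone and genotype cannot be told apart. No treatment, time point or serum condition is labelled for any library. Where nothing says that libraries of a group came from separate cultures, p-values measure only the spread between these libraries, which may be technical.

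AP-1 is a family of paired leucine-zipper transcription factors. JUN proteins pair with each other or with FOS proteins, whereas FOS proteins need a JUN partner to bind DNA. Fos, Fosb, Jun, Junb, Egr1, Ier2 and Ier3 are textbook immediate-early genes: growth factors, stress and cytokines switch them on through MAP kinases and through factors already present in the cell, and most of their mRNAs decay within a short time. Fosl1 and Jund behave differently in many cells, Fosl1 as a later target of sustained ERK signalling and of AP-1 itself, and Jund as a steadily expressed member. In the liver, JUN is known for its part in hepatocyte proliferation after injury and in liver tumours.

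Library totals lay between 11597923 and 13910582 counts, and the 10 genes took 0.123% to 0.159% of them. Acvr2a itself was read 81 and 108 times in NC and 75 and 97 times in KO (log2 fold change -0.21, edgeR adjusted p = 0.433), so its RNA level did not separate the groups and the names follow the labels. Exons of Acvr2a overlap those of Orc4 on the opposite strand, and no source used here says whether reads were assigned by strand. Its total is uncertain to that extent. Of the 8 hepatoma markers examined, Alb, Afp, Trf and Hnf4a were each above 100 CPM (counts relative to library size, with TMM scaling factors) in every library, while Apoa1, Apoa2, Ttr and Serpina1a were under 3 CPM or under the filter. Afp and Hnf4a were lower in KO (log2 fold changes -1.21 and -0.995) and Alb and Trf higher (0.41 and 0.54). Of the 10 leukocyte markers, 4 had no count in any library and Ptprc had 0 to 2 counts. The summed leukocyte TPM (which scales each library to the same sum and corrects for gene length) was 24.4 and 28.3 in NC and 56.8 and 68.4 in KO, nearly all of it Cd68. Endothelial markers summed to at most 1.15 TPM. The 8 fibroblast and stellate markers summed to 1034 and 1096 TPM in NC and 1234 and 1240 TPM in KO. Of these, Dcn was abundant at 1468 to 1682 CPM, Lum was at 0 and Col1a2, Pdgfrb and Acta2 had at most 2 counts per library. The part of these markers in the results below was not tested.

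Most of the AP-1 and immediate-early genes were higher in KO, with Fosl1 as the one that fell. Jun rose most, to 2.52 times its NC level, and Fosb (1.74 times), Fos (1.63 times), Ier3 (1.42 times), Egr1 (1.41 times) and Jund (1.24 times) rose as well. Fosl1 fell to 0.715 times its NC level. Fosl2, Junb and Ier2 did not pass the test. Thus 6 of 10 passed an adjusted p of 0.05 upward and 1 downward, where 19.7% of all genes tested passed upward, 18.2% downward and 37.9% in either direction (edgeR's quasi-likelihood test, Benjamini-Hochberg over all 12510 genes, as for all adjusted p-values below unless another tool is named). The median log2 fold change was 0.40 over the 10 genes and -0.0037 over all genes tested. Both KO libraries lay above both NC libraries for 7 of the 10, against 34.8% of all genes tested. The 10 genes were chosen with earlier results of these data known, so these shares are descriptive and no independent test. Upward calls were 51.9% of all calls across genes, a split that fell to 36.2% with the trend over transcript length removed and 38.1% with the trend over GC content removed, and rose to 68.0% with limma on log2(TPM + 1).

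By GENCODE M21 on GRCm38, Fos lies at chr12:85473890-85477273 on the plus strand, Fosb at chr7:19302696-19310051 (minus), Fosl1 at chr19:5447547-5455946 (plus) and Fosl2 at chr5:32135801-32157842 (plus). Jun lies at chr4:95049034-95052222 (minus), Junb at chr8:84974484-84978718 (minus) and Jund at chr8:70698949-70700616 (plus). Ier2 is at chr8:84661331-84662852 (minus), Ier3 at chr17:35821684-35822923 (plus) and Egr1 at chr18:34859823-34864984 (plus). All values below are totals over the exons of a gene.

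**Figure D1:**
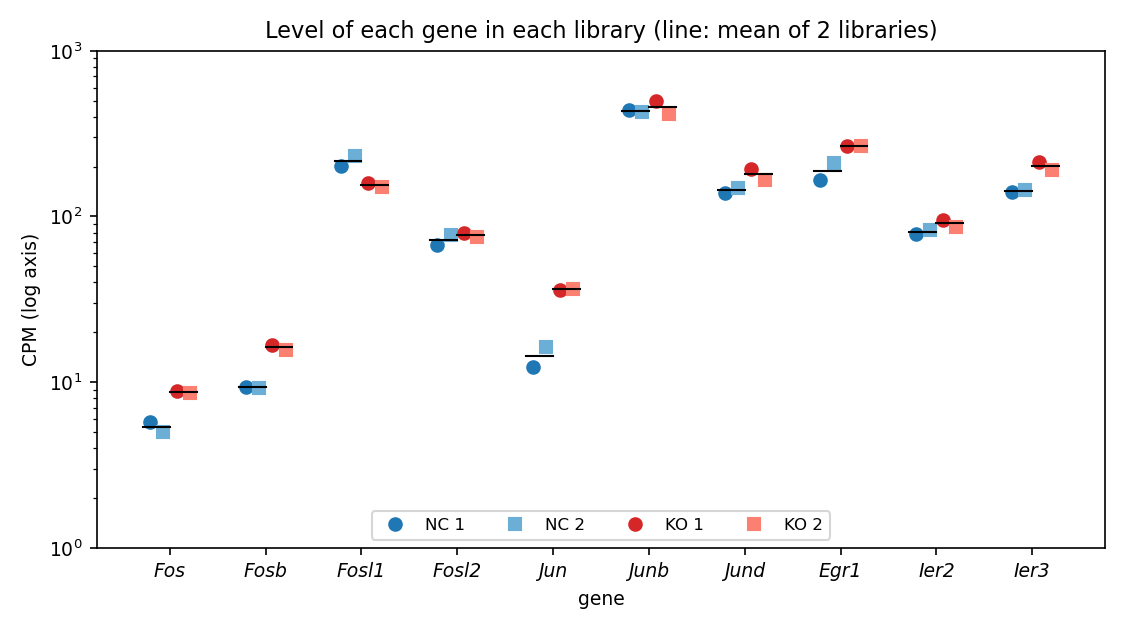
CPM of the 10 genes (log axis) in NC 1, NC 2, KO 1 and KO 2, with a line at the mean of each group of 2 libraries. Jun sits between 12.3 and 16.2 CPM in NC and at 35.8 and 36.7 CPM in KO, and Fosl1 is the only gene of the 10 with both KO libraries below both NC libraries.

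Levels per length spanned 2 orders of magnitude within the set. In NC the order by mean TPM was Junb (299.4 ± 5.72, SD, n = 2), Ier3 (173.9 ± 10.1), Fosl1 (161.3 ± 23.0), Jund (110.1 ± 9.26), Ier2 (68.5 ± 5.52), Egr1 (64.3 ± 13.5), Fosl2 (18.7 ± 4.69), Jun (5.30 ± 1.21), Fos (3.46 ± 0.28) and Fosb (2.98 ± 0.064). The NC libraries of Ier3 and Fosl1 overlapped, as did those of Ier2 and Egr1, and the other neighbours in the order did not. In KO the ranks of Fosl1 and Jund were exchanged, as were those of Ier2 and Egr1 and those of Fos and Fosb. Fosb and Fos overlapped in KO. The canonical pair Fos and Jun was therefore among the least abundant of the set in both groups, at 3.26 to 6.15 TPM in NC, and the bulk of FOS and JUN family RNA came from Fosl1 and Junb.

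Promoter sequence is shown for Jun, Fos and Fosb because these carried the largest rises of the 10 genes. Windows of RefSeq on GRCm38.p6 were matched for 7 of the 10 genes, all but Egr1, Fosl1 and Ier2. Each line gives the 250 bases before the annotated start, 5′ to 3′ on the gene's strand: Jun at chr4:95052223-95052472 (minus strand), Fos at chr12:85473640-85473889 (plus strand) and Fosb at chr7:19310046-19310295 (minus strand). Capitals mark matches on either strand to TGACATCA (the Jun-type AP-1 site), TTACCTCA (the upstream element of the Jun promoter), TGACG (the half-site of the cAMP response element) and TATAAA (the TATA box).
Jun: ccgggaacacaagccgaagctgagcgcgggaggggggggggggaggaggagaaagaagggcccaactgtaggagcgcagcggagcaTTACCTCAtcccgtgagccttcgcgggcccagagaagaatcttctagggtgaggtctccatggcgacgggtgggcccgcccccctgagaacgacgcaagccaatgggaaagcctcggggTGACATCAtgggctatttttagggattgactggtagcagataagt
Fos: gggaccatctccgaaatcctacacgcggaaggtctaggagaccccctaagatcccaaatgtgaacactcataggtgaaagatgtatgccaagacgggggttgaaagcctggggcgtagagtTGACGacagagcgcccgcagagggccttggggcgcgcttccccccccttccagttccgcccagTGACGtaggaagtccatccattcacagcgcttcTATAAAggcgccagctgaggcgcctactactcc
Fosb: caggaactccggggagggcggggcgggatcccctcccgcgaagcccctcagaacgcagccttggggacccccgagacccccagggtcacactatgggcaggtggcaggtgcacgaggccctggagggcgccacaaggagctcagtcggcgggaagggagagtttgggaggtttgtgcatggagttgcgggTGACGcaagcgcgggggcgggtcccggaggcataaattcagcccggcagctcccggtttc

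The Jun window held TGACATCA at 45 to 38 bases before the start and TTACCTCA at 164 to 157 bases, and the Fos window held TATAAA at 33 to 28 bases. The half-site TGACG occurred at 66 and at 129 bases before the start of Fos, at 60 bases before Fosb and at 106 bases before Junb, and not in the windows of Jun, Fosl2 or Ier3. The Fosl2 window, chr5:32136222-32136471, lies inside the GENCODE bounds of Fosl2 given above, so it is not the sequence before that gene's first base. The windows of Fosb and Ier3 (chr17:35821463-35821712) run partly into the GENCODE bounds of these genes. That of Junb (chr8:84978749-84978998) stops short of the GENCODE start of Junb. Positions for Fosb, Ier3 and Junb therefore count from the RefSeq start. The RefSeq window listed for Jund, chr8:70697489-70697738, ends well before the GENCODE start of Jund given above, so it is not the sequence next to that start and nothing is reported from it. Over all 32851 windows of the same length, TGACATCA was present in 2.93%, TTACCTCA in 0.728%, TGACG in 17.8% and TATAAA in 12.4%. The full element TGACGTCA (1.55% of windows), the AP-1 site TGANTCA (6.75%) and the CArG box bound by SRF (1.47%) were searched on both strands as well and matched none of the other 6 windows. TGACG is part of TGACGTCA, so those searches overlap. Sequence more than 250 bases before a start was not searched, nor was any of Egr1, Fosl1 or Ier2. Sites there would have been missed. These matches describe letters only and were not linked to the expression values.

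Among the FOS family, Fos, the founding member and a strong activator, had 65 and 69 counts in the NC libraries and 116 counts in each KO library. That corresponds to 5.72 and 4.98 CPM in NC and 8.80 and 8.59 CPM in KO, with no overlap of the groups. Its change was 0.71 on the log2 scale (SE 0.20, 95% interval 0.29 to 1.12, adjusted p = 0.00696). The transcript length of Fos, as estimated by the authors, was 1906 and 1952 bases in NC and 2056 and 2108 bases in KO. TPM corrects for this length, and its part in the TPM values of Fos was not tested. Fos had the fewest counts of the 10, and its call was lost in 5 of 15 alternative settings: with DESeq2 (adjusted p = 0.0636), in the 3 limma fits on TPM (0.0628 at a pseudocount of 1) and without NC 2 (log2 fold change 0.61, adjusted p = 0.0706).

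Fosb, which encodes a close relative of FOS, stood at 9.41 and 9.24 CPM in the NC libraries and at 16.9 and 15.6 CPM in the KO libraries. Replicates lay close together and the groups were far apart, with means of 9.33 ± 0.12 and 16.2 ± 0.87 CPM (SD, n = 2). The log2 fold change was 0.80 (SE 0.16, adjusted p = 0.000199), and 9.13% of all genes tested had a higher one. The truncated isoform of Fosb cannot be told from the full-length one in gene totals.

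Fosl1, also known as Fra-1, encodes a FOS protein without a strong activation domain that is abundant in many invasive carcinoma lines. NC 1 and NC 2 had 200.2 and 232.7 CPM, and KO 1 and KO 2 had 158.9 and 151 CPM. All of the KO values were below all of the NC values, with means of 216.5 ± 23.0 and 154.9 ± 5.59 CPM (SD, n = 2). The fitted change was -0.48 (SE 0.09, 95% interval -0.68 to -0.29, adjusted p = 0.000227). On TPM the fall was -0.42 and fell short of the threshold with limma (adjusted p = 0.0551 at a pseudocount of 1). Exons of Fosl1 overlap those of Ccdc85b on the opposite strand, and because no source used here says whether reads were assigned by strand, its total is uncertain to that extent.

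Fosl2, which encodes the related protein FRA-2, measured 67.6 and 77.4 CPM in NC against 80.0 and 75.1 CPM in KO. The groups overlapped, and the change of 0.094 on the log2 scale (SE 0.10, 95% interval -0.11 to 0.29) did not pass (adjusted p = 0.476). Its mean transcript length as estimated by the authors was 4166 bases in NC 2 and 4911, 4948 and 4786 bases in NC 1, KO 1 and KO 2, so TPM placed NC 2 highest (22.03) while CPM placed KO 1 highest. This difference in estimated isoform use rests on 1 library.

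In fold change, though not in level, the JUN family was led by Jun, the main partner of FOS proteins and itself a target of JUN N-terminal kinases. NC 1 and NC 2 held 12.3 and 16.2 CPM, and KO 1 and KO 2 held 35.8 and 36.7 CPM. The KO libraries were close together and far above NC. Group means were 14.3 ± 2.78 and 36.3 ± 0.63 CPM (SD, n = 2), and the difference on the log2 scale was 1.33 (SE 0.14, 95% interval 1.06 to 1.61, adjusted p = 1.67e-08). Of all genes tested, 3.73% had a higher log2 fold change. The value was 1.16 without NC 1 and 1.56 without NC 2, the widest such range of the 10 genes. Jun overlaps the antisense gene Junos.

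Junb, which pairs with FOS proteins and often opposes JUN in growth control, was the most abundant of the 10. Its NC libraries had 436 and 425.5 CPM and its KO libraries 494.9 and 415 CPM. KO 1 was the highest library and KO 2 the lowest, so the groups overlapped. Its log2 fold change was 0.079 (SE 0.10, 95% interval -0.12 to 0.28, adjusted p = 0.552), and without KO 1 its sign turned (-0.051). The upper end of this interval lies below the lower end of the interval for Jun. Junb shares exon sequence with Prdx2 on the opposite strand.

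Jund, the steadily expressed member, had 139.1 and 148.8 CPM in NC 1 and NC 2 and 192.6 and 165.7 CPM in KO 1 and KO 2. Both KO libraries were above both NC libraries, with KO 2 nearer to NC than KO 1. The log2 fold change of 0.31 (SE 0.10) passed in the count fit (adjusted p = 0.0108). The call was lost in 6 of the 15 settings, more than for Fos: in the 3 limma fits on TPM (adjusted p = 0.0818 at a pseudocount of 1), without KO 1 (0.20, adjusted p = 0.120), without NC 1 (0.27, adjusted p = 0.0895) and with the trend over GC content removed (0.024, adjusted p = 0.858). Its transcript has 67.1% G and C, and 0.127% of genes with a transcript measured exceed that. Jund overlaps the antisense gene Gm11175.

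**Figure D2:**
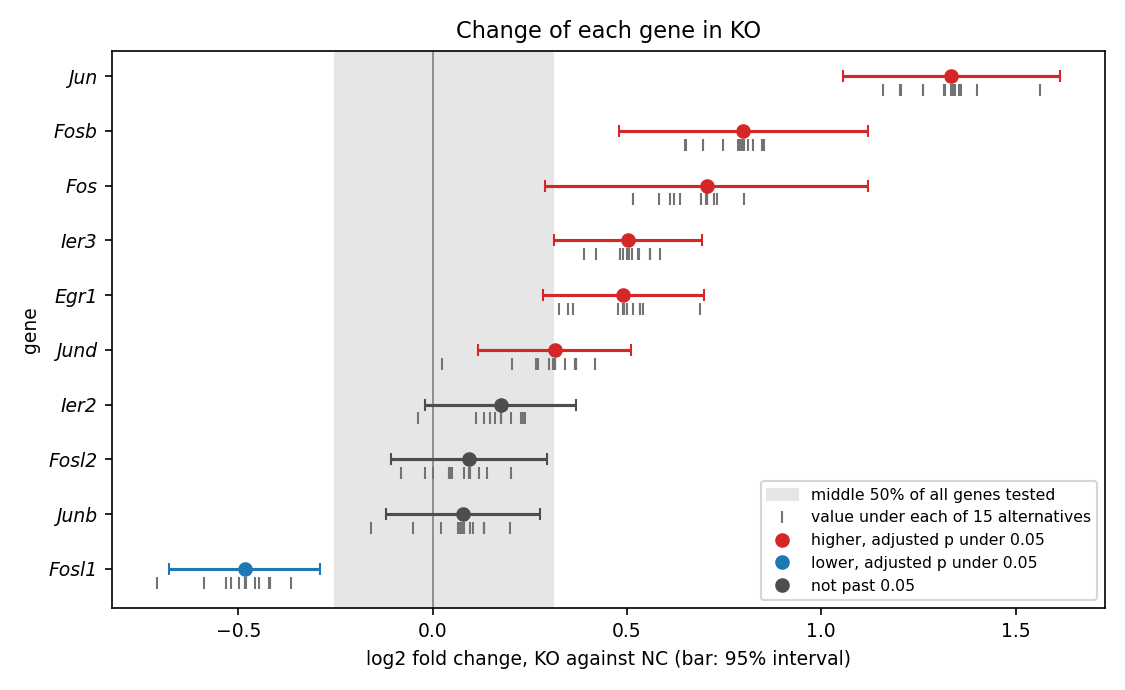
Log2 fold change of each gene between KO and NC, with its 95% interval as a bar, grey ticks for the values under the 15 alternative settings and a grey band for the middle 50% of all genes tested (-0.25 to 0.31). Jun, Fosb, Fos, Ier3 and Egr1 lie above 0 and Fosl1 below 0 at every tick, while ticks of Ier2, Fosl2 and Junb fall on both sides.

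Shares within each family shifted with these changes. Fosl1 made up 86.8% and 86.3% of summed FOS family TPM in NC 1 and NC 2, and 80.1% in both KO 1 and KO 2. Fos and Fosb together were a small part, with Fos at 1.88% ± 0.42 (SD, n = 2) in NC and 3.58% ± 0.0036 in KO, and Fosb at 1.62% ± 0.27 and 3.63% ± 0.23. Summed FOS family TPM was 167.1 and 205.8 in NC against 157 and 142.7 in KO, with all KO values below the NC values. Within the JUN family, Jun went from 1.10% and 1.44% to 2.62% and 3.17%, Jund from 25.7% and 27.4% to 29.2% and 29.5%, and Junb from 73.2% and 71.2% to 68.2% and 67.3%. Summed JUN family TPM was 403.4 and 426.2 in NC and 536.8 and 436.6 in KO. No test was made on shares, since the smallest p an exact two-sided permutation test gives with 2 libraries against 2 is 0.33.

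The ratio of Fosl1 to Jun in TPM put these opposite changes into one number. It was 32.7 in NC 1 and 28.9 in NC 2, and 8.93 in KO 1 and 8.27 in KO 2. The ratio of Fosl1 to Fos was 39.7 and 54.5 in NC and 22.3 and 22.4 in KO. For Junb against Jun it was 66.5 and 49.3 in NC and 26.0 and 21.2 in KO. In each of these 3 ratios both KO libraries were lower than both NC libraries.

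**Figure D3:**
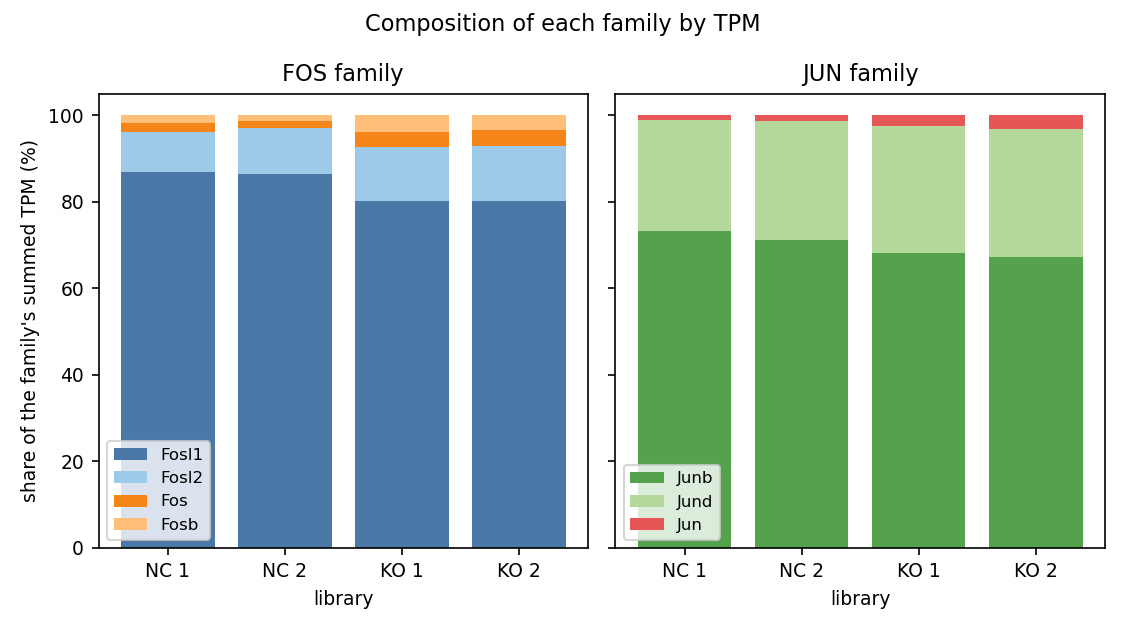
Share of each gene in the summed TPM of the FOS family (left) and the JUN family (right) in each library, in percent. Fosl1 takes 86.3% to 86.8% of the FOS family in NC and 80.1% in KO, and the bars for Fos, Fosb and Jun are thicker in KO.

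Outside the AP-1 families, Egr1, a zinc-finger immediate-early factor induced through SRF, gave 165 and 211.1 CPM in NC 1 and NC 2 and 264.5 and 264.6 CPM in KO 1 and KO 2. The KO libraries were nearly equal and both above NC, where NC 1 was the lower. The log2 fold change was 0.49 (SE 0.10, adjusted p = 0.000375), and it was 0.33 without NC 1 and 0.69 without NC 2. Ier3, which encodes a short-lived stress-inducible regulator of cell survival, had 139.9 and 143.9 CPM in NC 1 and NC 2 and 212.9 and 189.5 CPM in KO 1 and KO 2. Its groups were well apart, by 0.50 on the log2 scale (SE 0.09, with 0.000118 as adjusted p). Ier2, a nuclear immediate-early protein gene, had 77.9 and 82.9 CPM in NC and 94.95 and 86.8 CPM in KO. Both KO values were above NC, but a difference of 0.18 on the log2 scale (SE 0.09, 95% interval -0.018 to 0.37) did not pass (adjusted p = 0.147).

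In gene structure, the set was rich in G and C, and its median transcript was shorter than that of the genes tested. Median length of the first-listed coding transcript in GENCODE M21 was 1986 bases against 2831 bases over the 10987 tested genes with such a transcript, and median GC content was 56.6% against 50.6%. Fosl2 (6537 bases), Egr1 (4484 bases), Fosb (3782 bases) and Jun (3189 bases) were longer than the median of tested genes, and the other members shorter. Jun, Jund and Ier2 are annotated with 1 exon. The pentamer ATTTA, the core of AU-rich elements that shorten mRNA life, occurred in the 3′ UTR of 9 of the 10 (all but Ier2), against 64.6% of tested genes. Ier3 had 8.16 per kilobase, Fos 4.91, Junb 4.12 and Jun 3.24, against a median of 1.19, while Fosb had 0.466.

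Genes of the same pathway were taken from lists written from general knowledge, but with earlier results of these data known. Their shares beside those of all genes are therefore descriptive and no independent test. Among other immediate-early genes, 27 of 30 were tested, 19 rose and 3 fell, with a median log2 fold change of 0.53, where 19.7% of all genes rose and 18.2% fell. Atf3, a stress-induced partner of JUN, rose from 12.2 and 12.3 CPM to 39.5 and 36.6 CPM, a log2 difference of 1.64 with an adjusted p of 1.69e-10. For Cyr61, a matricellular protein gene, the rise was 1.36 (SE 0.09, adjusted p = 9.32e-12), and its level was 90.8 and 95.1 CPM in NC against 234.5 and 242.1 CPM in KO. Gadd45b (1.35), Rhob (1.17), Klf10 (1.08) and Tob1 (0.93) completed the 6 with the lowest p. The 3 that fell were Phlda1 (-0.77), Ier5l (-0.57) and Zfp36 (-0.34), the last encoding a protein that destabilises AU-rich mRNAs. They were named after their values were seen. Egr3 and Egr4 had no count in any library. Cd68 and the fibroblast markers Col1a1 and Des were higher in KO too (log2 fold changes 1.20, 2.73 and 1.28), Col1a1 at 0.59 TPM in both KO libraries, and their part was not tested.

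Of 15 feedback genes of the ERK pathway 14 were tested, 5 fell, 1 rose and 8 did not pass, with a median of -0.043. The share that passed, 42.9%, is near the 37.9% of all genes tested. Dusp6, the phosphatase that inactivates ERK in the cytoplasm, fell from 297.4 and 301.8 CPM to 154.4 and 140.7 CPM, or -1.02 in log2 terms (SE 0.09, adjusted p = 1.96e-09). Spry4, an inhibitor of receptor tyrosine kinase signalling, went from 58.4 and 66.6 CPM to 29.5 and 27.2 CPM (-1.15, SE 0.11, adjusted p = 4.23e-09). Spred1 (-0.40), Ets2 (-0.37) and Spred2 (-0.32) also fell, while Dusp5, which acts on ERK in the nucleus, rose by 0.47. The calls for Ets2 and Spred2 were lost without NC 2, at log2 fold changes of -0.23 and -0.24. Those for Spred1, Ets2 and Spred2 were lost in the 3 limma fits on TPM. Fosl1 and 5 of the 14 tested feedback genes, Dusp6 and Spry4 among them, fell in the libraries in which Fos, Fosb, Jun and Egr1 rose. Whether these changes are related was not tested. Of the other feedback genes, 8 did not pass and Dusp5 rose.

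Of the kinases upstream of these genes 30.0% passed, against 37.9% of all genes. Of 20 MAP kinase pathway genes tested 2 rose and 4 fell, with a median of -0.042, and without KO 2 the total past the threshold was 3. Rps6ka1 rose by 0.53 (SE 0.10) and Mapk9, which encodes a JUN N-terminal kinase, by 0.35 (SE 0.11). Map2k2 (-0.39), Rps6ka3 (-0.29) and Map2k3 (-0.28) were among those that fell. None of Mapk9, Map2k2, Rps6ka3 and Map2k3 passed in the 3 limma fits on TPM. With DESeq2, Rps6ka3 (adjusted p = 0.0574) and Map2k3 (0.0959) did not pass. The call for Mapk9 was also lost with the trend over transcript length removed. The calls for Mapk9 and Map2k2 were lost without KO 2 (0.19 and -0.25), that for Mapk9 also without NC 1 (0.30), those for Map2k3 and Rps6ka3 without NC 2, and those for Rps6ka3 also without KO 1 and Map2k3 also without KO 2. Of 7 genes for SRF, its ternary complex factors and related factors, 28.6% passed, against 37.9% of all genes. Mkl2 rose (0.43, but 0.28 without NC 1) and Mkl1 fell (-0.30, but -0.26 without NC 2 and -0.23 without KO 2). Both calls were lost in those fits and in the 3 limma fits on TPM. That for Mkl1 was also lost with DESeq2 (adjusted p = 0.0635), and that for Mkl2 with the trend over transcript length removed. Srf itself, at 0.098 (SE 0.10, adjusted p = 0.454), did not pass.

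AP-1 dimer partners outside the set showed 1 rise, Atf3, and 3 falls among 9 tested, those of Mafg (-0.46) and Maf (-0.32) among them, the latter lost without NC 2 and without KO 1. Neither Mafg nor Maf passed in the 3 limma fits on TPM, and Maf did not pass with DESeq2 (adjusted p = 0.0640). Batf had no count in any library. Among 17 tested genes of 22 commonly listed as AP-1 targets, 6 rose and 2 fell, with a median of 0.14. Of these targets 47.1% passed and of the partners 44.4%, against 37.9% of all genes (19.7% upward, 18.2% downward). Hmox1, the stress-induced haem oxygenase, rose by 1.13 and the collagenase gene Mmp13 by 0.63, with Areg (0.61) and Mmp9 (0.58). Ccnd1, the cyclin D1 gene, fell from 964 and 1033 CPM to 782.8 and 700.9 CPM (-0.43, SE 0.10). In TPM its groups overlapped (305.1 and 349.4 in NC, 328.6 and 229.6 in KO). Its call was lost in the 3 limma fits on TPM. Plau, Mmp3 and Il6 had at most 4 counts in any library and were not tested.

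Genes that control AP-1 protein or mRNA turnover gave 3 falls and no rise among 10 tested, or 30.0% past the threshold against 37.9% of all genes (18.2% downward). Trib1, an adaptor for the ubiquitin ligase COP1, fell by 0.70 on the log2 scale, Zfp36l2 by 0.42 and Cop1 by 0.30. The list's median was 0.13, of opposite sign to its calls, and with TPM the sign of Cop1 itself turned (0.19). The call for Cop1 was also lost with DESeq2, without NC 1 (-0.27) and without KO 2 (-0.26). That for Zfp36l2 was lost in the 3 limma fits on TPM. Of 10 listed heat-shock genes 7 were tested, 4 fell, 0 rose and the median was -0.41. The share past the threshold was 57.1%, against 37.9% of all genes (18.2% downward). Hsph1 (-0.70), Hspe1 (-0.52), Hspd1 (-0.51) and Hspa8 (-0.41) were the ones that fell, Hspa1a had no count in any library, Hspa1b had 1 in all, and Hspb1 had none in NC but 4 in KO 1 and 2 in KO 2. The calls for Hsph1 and Hspd1 were lost in the 3 limma fits on TPM. Whether handling of the cells had a part in any of these values was not tested. Exons of Hspe1 and Hspd1 overlap each other, and those of Maf, Mafg, Dusp5, Rps6ka1, Mkl1, Mkl2, Ccnd1, Zfp36l2 and Hspa8 overlap other genes, so the totals of these genes are uncertain to that extent.

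**Figure D4:**
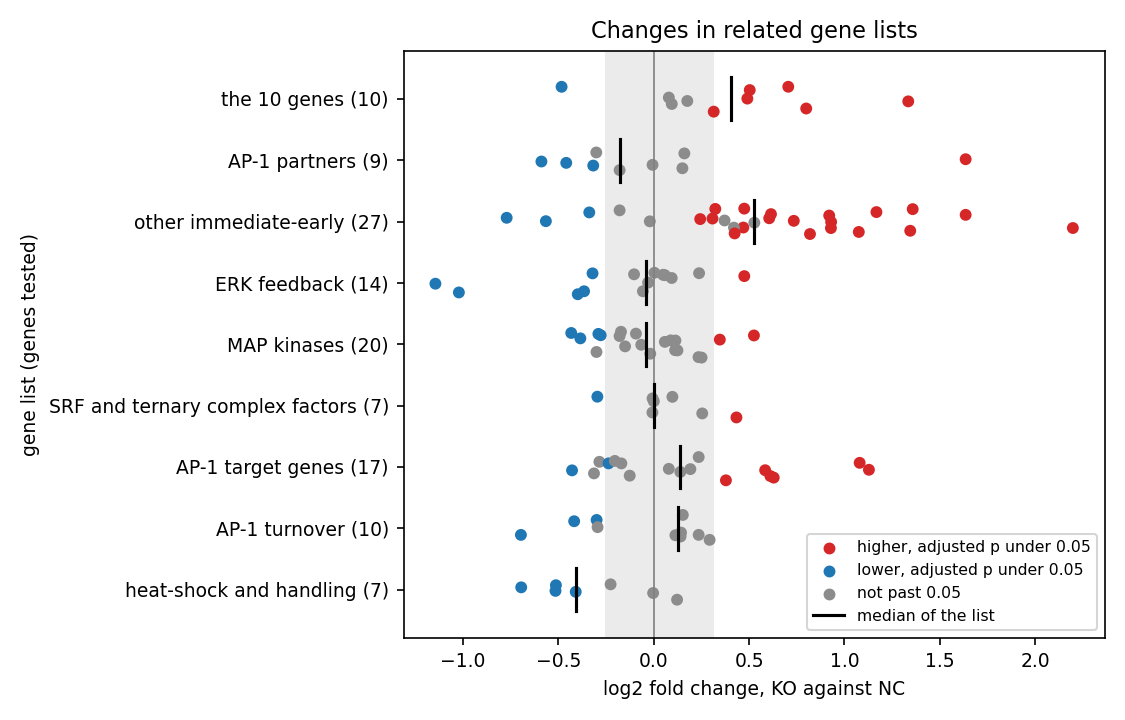
Log2 fold change between KO and NC of each tested gene in the set of 10 and in 8 related lists, with red for genes past an adjusted p of 0.05 upward, blue for downward, grey for the rest, a black bar at each median and a grey band for the middle 50% of all genes tested. The other immediate-early genes lie mostly to the right with a median of 0.53, and the ERK feedback list has its 2 lowest points near -1.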

How the data were processed

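The authors deposited, for each library, expected counts, TPM and FPKM per gene with transcript lengths, under the column names of RSEM per the file headers. FastQC, STAR, RSEM, DESeq2 and the builds GRCm38 and mm10 are named in the submitters' processing notes without versions. Strand setting and annotation release are not given in the sources used here. Deposited FPKM was not used. Expected counts were rounded, filtered with filterByExpr, scaled by TMM and tested with edgeR 4.0.16 (quasi-likelihood, R 4.3.3), the group being the only term. Library totals of 11597923 to 13910582 gave members 65 to 6520 counts per library, and intervals cover counting error and the spread of these libraries. Deposited TPM served for levels per length and, with limma 3.58.1, for alternatives. DESeq2 1.42.0 was another. Of 54838 gene IDs 54723 matched GENCODE M21 (GRCm38) without version numbers. The fit was tested on simulated data of 12510 genes, with 50 changed by each fold. Of these, 92% of 3-fold, 86% of 2-fold, 62% of 1.5-fold and 22% of 1.25-fold changes were called, as were 12 unchanged genes. Far fewer genes were changed there than the 4741 called in the data, so these rates need not hold for the data. The simulated spread was the one fitted to these libraries, so differences between cultures or clones were not tested. The 10 members and the lists were chosen with earlier results of these data known. Named from each list are up to 6 genes past 0.05 with the lowest p, besides all members and Acvr2a. A few genes that this rule names are not reported here. Marker lists covered hepatoma, leukocyte, fibroblast and stellate, and endothelial genes.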

Additional observations from a re-analysis of the deposited data

How the results depend on the processing

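With the replicate number as a block, which no label says pairs the libraries (the same-numbered libraries' deviations had a correlation of -0.00078), 5006 genes passed against 4741, and the same number of members, 7, passed. On log2 TPM with limma, 2158 genes, 4 members and 30 list genes passed at a pseudocount of 1 and 2099, 4 and 31 at 0.1, against 4741, 7 and 54. Of all calls, 51.9% were upward in the count fit, and 68.0% at a pseudocount of 1, 56.4% with upper-quartile factors, 36.2% with the length trend and 38.1% with the GC trend removed. Without a filter on TPM, 0 genes, 0 members and 0 list genes passed in limma, with 4506, 7 and 50 at an unadjusted p under 0.05, while DESeq2 on the counts called 3217 genes and 6 members. The cause was not tested. The fall of Fosl1's share of FOS family TPM was -6.45 percentage points, and -7.38 by CPM per kilobase of mean effective length. Signs turned only for genes short of 0.05 in that fit: Fosl2 (-0.080 with the length trend and -0.019 with the GC trend removed), Junb (-0.16 with the GC trend removed, -0.051 without KO 1 and up to 0.20 without KO 2), Ier2 (-0.037 with the GC trend removed), and on TPM Cop1 (0.19 at both pseudocounts) and Rps6ka3 (0.16 and 0.17). The GC fit was added after the data were seen, and the others were planned. Fos, with 65 to 116 counts, is limited most by depth.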
